A study of Mus musculus with 11 samples.

Results

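The genes described here are 8 cathepsins (Ctsl, Ctsb, Ctsd, Ctsh, Ctsz, Ctsc, Ctsa and Ctss), the lysosomal protease legumain (Lgmn) and the cathepsin inhibitor cystatin C (Cst3). Members were found by symbol: a probe set was taken where the array annotation gives it a single gene and that gene is on this list. Each of the 10 genes had exactly 1 such probe set, out of 28939 probe sets tested, which cover 19938 named genes. The set was chosen by a measured value, the level of Ctsl, which had been seen to be much lower in lymphoma than in normal thymocytes. The differences between either lymphoma group and normal thymocytes are therefore given as a description with no test, for all 10 genes.

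The study measured RNA from the thymus of FVB mice in a model of MYC-driven T cell lymphoma with or without Dnmt3b, a de novo DNA methyltransferase. Every mouse carried EμSR-tTA, a tetracycline-controlled activator driven in blood cells, and Rosa26LOXPEGFP, a reporter that makes EGFP once Cre has acted. The 3 normal samples were thymocytes of mice aged 24 days with Teto-Cre and intact Dnmt3b (Dnmt3b+/+) and no MYC transgene. The 3 wild-type lymphomas came from mice with Teto-MYC and a floxed but uncut Dnmt3b gene (Dnmt3bF/F), without Cre, and the 3 Dnmt3b-deficient lymphomas from mice with Teto-MYC, Teto-Cre and Dnmt3b-/-. Both kinds of tumor were taken once disease was apparent. The 2 pre-tumor samples had the genotype of the Dnmt3b-deficient lymphomas, were taken at 24 days and were sorted for EGFP-positive cells. Sorting is stated for the pre-tumor thymi, the tumors were put into TRIzol directly, and for the normal thymocytes the labels do not settle it. Pre-tumor and normal samples differ in both MYC and Dnmt3b, and may differ in sorting, which would remove cells without EGFP, such as epithelial cells. The parts of the 3 in a difference cannot be told apart. The labels call the samples of a group biological replicates.

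Cathepsins are made as inactive precursors, travel to lysosomes by the mannose 6-phosphate route and become active in the acid inside them. Most are cysteine proteases that cystatins inhibit, while Ctsd is an aspartic protease and Ctsa a serine carboxypeptidase. In the thymus, cathepsin L is known for cutting the invariant chain of MHC class II in cortical epithelial cells, a step needed to select CD4 T cells, and cathepsin S does the same work in dendritic cells, macrophages and B cells. Thymocytes make cathepsin L as well, where it serves CD1d presentation to natural killer T cells.

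Each of the 11 samples was hybridised to 1 Affymetrix whole-transcript array, and a level here is the deposited log2 value of a probe set. The lowest value in the table is 3.32, a floor (log2 of 10) at which 23.6% to 25.7% of the values of each array lie. Array medians ran from 4.55 to 4.62, and arrays of a group correlated at 0.973 to 0.991 over the tested probe sets. T lineage markers were present in every sample, with Cd3e between 8.70 and 10.58. A whole-tissue RNA sample cannot tell fewer cells of a type from less RNA per cell. Levels of different genes come from different probes and are not compared with each other.

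Many lysosomal genes carry the E-box CACGTG near their start, a palindrome that both MYC with its partner MAX and the lysosomal regulator TFEB are known to read. The promoter windows are shown because several of these genes differed together from normal thymocytes. RefSeq promoter windows of 300 bases on GRCm38.p6, from 250 bases before to 50 after a start, were at hand for 8 of the 10 genes, with 10 windows in all. Ctsb and Ctsh are named only. CACGTG was found in 4 of the 10 windows, beside 7.15% of the 32851 windows of all genes. Its longer form TCACGTG, searched on both strands and containing CACGTG, was found in 3 of 10, beside 3.77%. The full palindrome known as the CLEAR element of lysosomal genes, which contains both, was found in 0 of 10, beside 0.326%. The GC box GGGCGG, on either strand, was found in 6 of 10, beside 35.7%. Stretches of 30 bases around each CACGTG follow, 5′ to 3′ on the gene's strand, with the motif in capitals:
Ctsl, chr13:64370739-64370768, minus strand: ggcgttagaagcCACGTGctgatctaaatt
Ctsd, chr7:142388048-142388077, minus strand: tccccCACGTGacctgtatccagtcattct
Ctsd, chr7:142387908-142387937, minus strand: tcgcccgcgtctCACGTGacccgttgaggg
Ctsa, chr2:164833749-164833778, plus strand: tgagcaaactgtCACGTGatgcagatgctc
Ctsa, chr2:164833766-164833795, plus strand: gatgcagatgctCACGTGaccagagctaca
Lgmn, chr12:102439124-102439153, minus strand: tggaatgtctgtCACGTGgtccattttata
The motif begins at -236 from the start in Ctsl, at -245 and -98 in Ctsd, at -12 and 6 in Ctsa and at -49 in Lgmn. The start beside the motif lies 252 bases inside the RefSeq gene for Ctsl, 901 for Ctsa and 636 for Lgmn, so these belong to shorter transcripts. Ctsa and Lgmn each have another window, at the outer start of the gene, and neither of these holds CACGTG. Only in Ctsd was the motif found at the outer start, and no such window was at hand for Ctsl. Of the 5 genes that differed between pre-tumor and normal thymocytes, Cst3 has no CACGTG in its window, and Lgmn, which has one, was the gene that was higher. A match of letters describes the window and was not tested as a binding site.

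Of the 10 genes, Ctsl had the widest spread over the study. Normal thymocytes read 10.16, 9.96 and 10.14 (mean 10.08 ± 0.11, SD, n = 3). Wild-type lymphomas read 5.66, 5.25 and 5.10 (5.34 ± 0.29, SD, n = 3), and Dnmt3b-deficient lymphomas 7.33, 5.90 and 4.91 (6.04 ± 1.22, SD, n = 3). The 2 pre-tumor samples, at 7.74 and 6.94, lay between normal thymocytes and the wild-type lymphomas and overlapped the Dnmt3b-deficient lymphomas. As a description, the mean of Ctsl was 26.8-fold below that of normal thymocytes for wild-type lymphomas and 16.4-fold for Dnmt3b-deficient lymphomas.

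The pre-tumor samples played no part in the choice of Ctsl, although they are compared here with the same 3 normal samples. Ctsl fell in them by 2.74 on the log2 scale, 6.70-fold (SE 0.62, 95% CI -4.20 to -1.29, adjusted p = 0.0207, limma's moderated test). No sample of the groups overlapped. The call held in 16 of 20 other settings tried. It was lost without normal replicate 1, 2 or 3, with adjusted p of 0.0540, 0.0535 and 0.0505 (limma). It was also lost without pre-tumor replicate 2, where the difference was -2.35. In these fits the difference lay between -2.81 and -2.35.

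**Figure D1:**
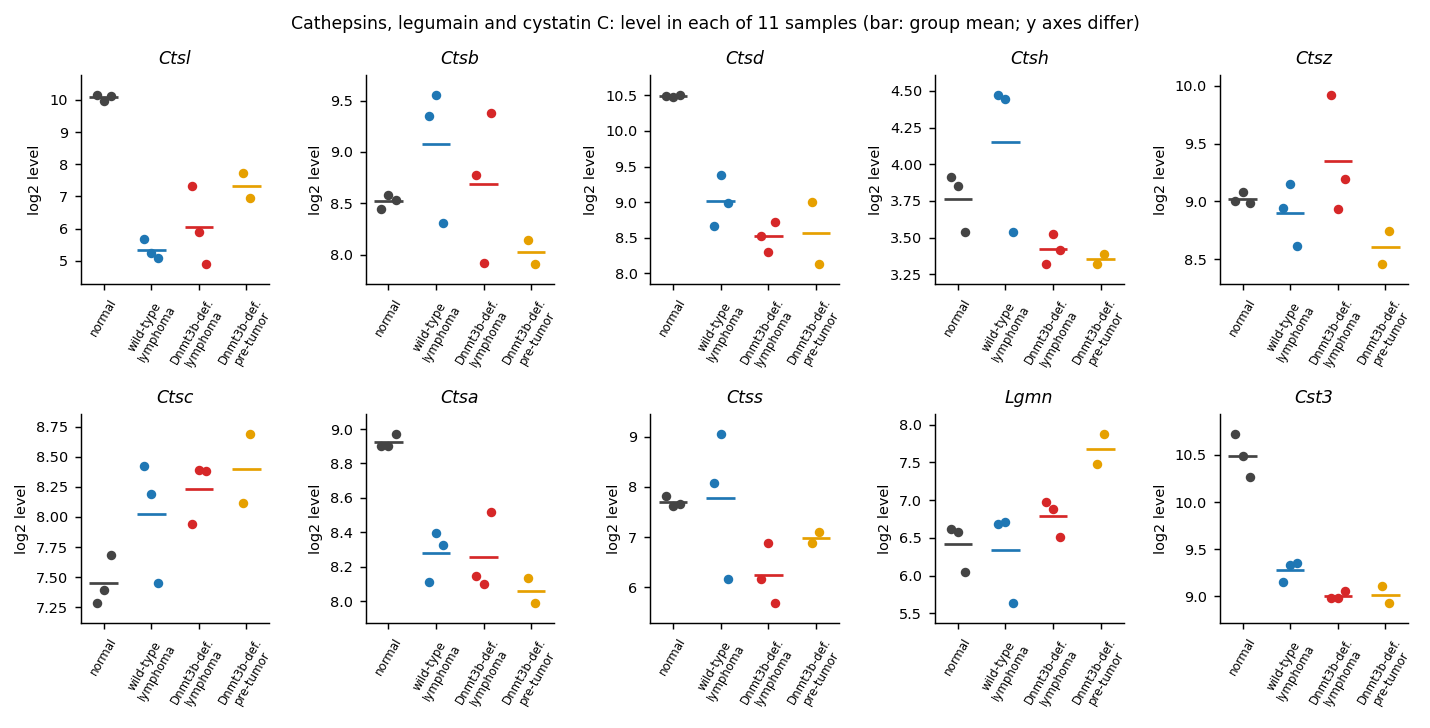
Level (log2, deposited values; y axes differ between panels) of the 10 genes in each of the 11 samples, 1 point a sample, with a bar at each group's mean. Ctsl, Ctsd, Ctsa and Cst3 are higher in every normal sample than in any other sample, and Lgmn is highest in the 2 pre-tumor samples.

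Ctsd, the main aspartic protease of lysosomes, had the tightest normal group. Normal thymocytes read 10.50, 10.48 and 10.51, wild-type lymphomas 8.66, 9.38 and 8.99, Dnmt3b-deficient lymphomas 8.53, 8.30 and 8.72, and pre-tumor samples 9.004 and 8.132. Every normal sample lay above every other sample, and the other 3 groups overlapped each other. Ctsd fell in pre-tumor samples by 1.93 on the log2 scale, 3.80-fold (SE 0.29, adjusted p = 0.00507, limma). With only the 2 groups in the fit the adjusted p was 0.0551. As a description, wild-type lymphomas were 2.80-fold and Dnmt3b-deficient lymphomas 3.94-fold below normal thymocytes.

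Ctsa, which trims peptides and also holds the hydrolases Neu1 and Glb1 in a protective complex, differed less but evenly. Normal thymocytes read 8.90, 8.90 and 8.97, wild-type lymphomas 8.11, 8.40 and 8.33, Dnmt3b-deficient lymphomas 8.15, 8.10 and 8.52, and pre-tumor samples 8.13 and 7.99. All normal samples lay above all others. Against them, as a description, Ctsa was 1.57-fold lower in wild-type and 1.59-fold lower in Dnmt3b-deficient lymphomas. The fall in pre-tumor samples was 1.82-fold (difference -0.86, SE 0.14, adjusted p = 0.0060, limma), and its adjusted p was 0.0562 without pre-tumor replicate 2. Its complex partners did not pass the same test, with a difference of 0.27 for Neu1 (adjusted p = 0.479) and -0.49 for Glb1 (adjusted p = 0.117). These 2 were named for their link to Ctsa after their values were seen.

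Cst3, a secreted inhibitor of cysteine cathepsins, was lower outside normal thymocytes, as Ctsl was. Normal thymocytes read 10.72, 10.49 and 10.26, wild-type lymphomas 9.15, 9.33 and 9.36, Dnmt3b-deficient lymphomas 8.98, 8.98 and 9.05, and pre-tumor samples 9.11 and 8.93. Normal samples were the highest, wild-type lymphomas came next without overlap, and the 2 Dnmt3b-deficient groups overlapped. Cst3 fell 2.78-fold in pre-tumor samples (difference -1.48, SE 0.13, adjusted p = 0.00124, limma), a call that held in all 20 other settings tried. Against normal thymocytes the description for the tumors is 2.32-fold lower in wild-type and 2.81-fold lower in Dnmt3b-deficient lymphomas.

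Lgmn, an asparaginyl endopeptidase that also processes cathepsins to their 2-chain forms, went the other way. Pre-tumor samples read 7.48 and 7.87, above every other sample. Normal thymocytes read 6.61, 6.58 and 6.05, wild-type lymphomas 6.69, 6.71 and 5.64, and Dnmt3b-deficient lymphomas 6.98, 6.88 and 6.52. The rise over normal thymocytes was 2.40-fold (difference 1.27, SE 0.36, 95% CI 0.43 to 2.10, adjusted p = 0.0454, limma). It is the weakest of the calls and held in only 8 of 20 other settings tried. It was lost without any of 3 normal samples (adjusted p 0.0717 to 0.112, limma). It was also lost without pre-tumor replicate 1 or 2, where the differences were 1.46 and 1.07. The call was lost as well without any 1 lymphoma other than wild-type replicate 3, without moderation and with only the 2 groups in the fit.

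Over the 10 genes, 5 passed the test between pre-tumor and normal thymocytes, 4 lower and 1 higher, where 19.6% of all probe sets passed, 9.88% lower and 9.69% higher. The median difference of the 10 was -0.60, beside -0.02 for all probe sets. The groups did not overlap for any of the 10, with 8 lower and 2 higher in pre-tumor samples, where 27.3% of all probe sets were lower and 17.4% higher without overlap. Only 2 pre-tumor samples make a lack of overlap easy to reach. Leaving out normal replicate 1, 2 or 3 moved the count of 5 to 3, where 15.6%, 13.4% and 17.4% of all probe sets passed. The count was 6 without wild-type lymphoma replicate 3, where 18.6% of all probe sets passed. It was 4 without any other lymphoma, where 17.1% to 19.5% passed. It also fell without either pre-tumor sample.

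**Figure D2:**
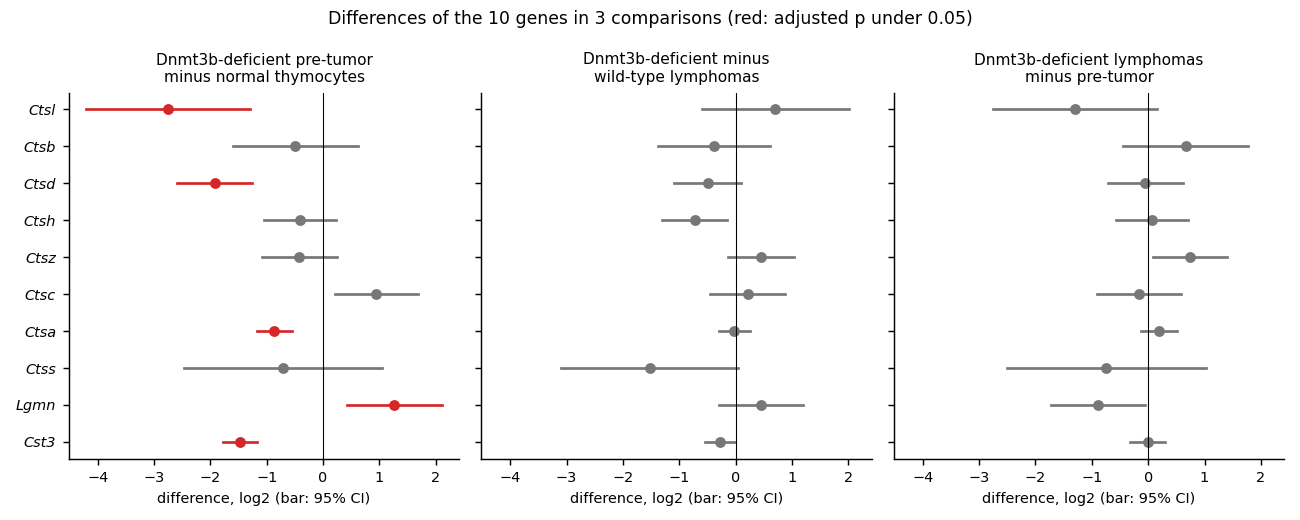
Difference in log2 level (points, with 95% confidence intervals as bars) of the 10 genes in the 3 comparisons that were tested, with red for an adjusted p under 0.05. Ctsl, Ctsd, Ctsa and Cst3 lie left of 0 and Lgmn right of it in pre-tumor against normal thymocytes, and no gene passes in the other 2 comparisons.

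The tumors are set against normal thymocytes as a description only, and nothing is read from the counts that follow, since the genes were chosen on this difference. In wild-type lymphomas 4 of the 10 were past the threshold, Ctsl, Ctsd, Ctsa and Cst3, each lower, where 19.9% of all probe sets were past it and 10.3% were lower. In Dnmt3b-deficient lymphomas Ctsl, Ctsd, Ctsa and Cst3 were past it, also lower, where 20.2% of all probe sets were past it and 10.5% were lower. These comparisons share the normal samples with each other and with the pre-tumor comparison.

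Ctss and Ctsh are cathepsins of antigen-presenting cells. Ctss cuts the invariant chain, and Ctsh is an aminopeptidase. Ctss read 8.09 and 9.06 in wild-type lymphomas 1 and 2 but 6.17 in the third, beside 7.81, 7.63 and 7.66 in normal thymocytes. Dnmt3b-deficient lymphomas read 6.16, 6.89 and 5.68 and pre-tumor samples 6.88 and 7.09. For Ctsh, close to the floor throughout, wild-type lymphomas read 4.47, 4.44 and 3.54, normal thymocytes 3.91, 3.85 and 3.54, Dnmt3b-deficient lymphomas 3.32, 3.52 and 3.42, and pre-tumor samples 3.32 and 3.39. A Dnmt3b-deficient lymphoma and a pre-tumor sample were at the floor for Ctsh, so its differences from those groups are lower limits. Ctss had the widest spread of the 10 genes among wild-type lymphomas (SD 1.47), and 7 of the 10 (Ctsl, Ctsb, Ctsh, Ctsz, Ctsc, Ctss and Lgmn) read higher in wild-type lymphomas 1 and 2 than in 3. The share of all probe sets with this order was not counted, so nothing is read from that count.

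Some markers of myeloid cells were likewise higher in wild-type lymphomas 1 and 2 than in 3: 9 of the 16 measured genes of a macrophage and monocyte list and 12 of 12 of a neutrophil list. The same held for 5 of 10 T lineage and 5 of 12 dendritic cell genes. It held for 2 of 14 thymic epithelial genes, 2 of 13 of stroma and endothelium, 1 of 9 B lineage and 0 of 3 red cell genes. Lyz2, a macrophage and neutrophil lysozyme, read 9.71, 10.41 and 6.23 in wild-type lymphomas 1 to 3, and Cd68, a macrophage lysosomal protein, 6.77, 7.48 and 5.58. The complement gene C1qa, a marker of tissue macrophages, did not follow, at 4.997, 4.782 and 4.905. S100a8, a neutrophil gene, read 7.62, 7.43 and 3.76, and the summed log2 level of the 12 neutrophil genes was 74.7, 71.9 and 48.2. Among Dnmt3b-deficient lymphomas 1 to 3 that sum was 47.8, 71.7 and 50.6. Replicate 2 of that group also had the highest Lyz2 (8.28, beside 5.15 and 4.73) and the highest Ctss (6.89). It was the highest for 11 of 12 neutrophil and 9 of 16 macrophage genes, but for only 3 of the 10 genes described here. Among the other lists it was the highest for 3 of 12 dendritic cell, 2 of 10 T lineage and 2 of 13 stroma and endothelium genes. For thymic epithelial, B lineage and red cell genes the counts were 1 of 14, 1 of 9 and 2 of 3. The share of all probe sets was not counted here either. Over the 16 measured genes of a list of 18 macrophage and monocyte markers, the summed log2 level was 72.8 to 76.6 in normal thymocytes, 68.4 to 83.4 in wild-type lymphomas, 65.8 to 73.5 in Dnmt3b-deficient lymphomas and 63.2 to 64.8 in pre-tumor samples. Cd163 was at the floor on every array, and Adgre1 at or near it. The part of macrophages and neutrophils in the levels of Ctss, Ctsh and the other cathepsins was not tested.

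**Figure D3:**
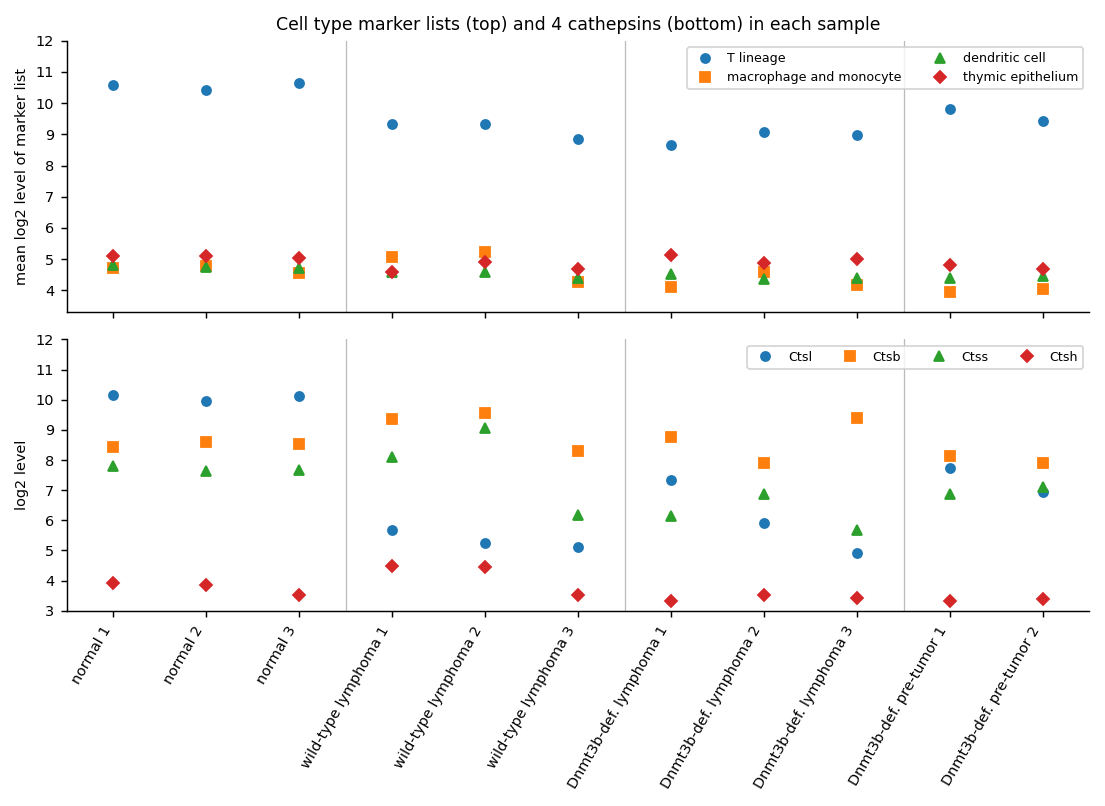
Mean log2 level of 4 cell type marker lists (top) and log2 level of 4 cathepsins (bottom) in each of the 11 samples. All 4 cathepsins are higher in wild-type lymphomas 1 and 2 than in 3, as are the means of the macrophage, dendritic cell and T lineage lists. The 4 are among the 7 of the 10 genes with this order. Ctsd, Ctsa and Cst3, which are not shown, do not have it. The share of all probe sets with this order was not counted. The mean of the thymic epithelial list is not. Ctsl is high in normal thymocytes and between 4.91 and 7.74 elsewhere.

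Neither gene passed a test. Between Dnmt3b-deficient and wild-type lymphomas the difference of Ctss was -1.53 (SE 0.68, 95% CI -3.10 to 0.048, adjusted p = 0.795, limma) and that of Ctsh -0.73 (95% CI -1.30 to -0.16, adjusted p = 0.719). Without wild-type lymphoma replicate 3, Ctsh reached an adjusted p of 0.0327 with a difference of -1.04. Between pre-tumor and normal thymocytes the differences were -0.71 for Ctss (95% CI -2.48 to 1.05) and -0.41 for Ctsh (95% CI -1.05 to 0.23). Ctss had an adjusted p of 0.0485 there with only the 2 groups in the fit.

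The remaining members were Ctsb, a broad endopeptidase and exopeptidase, Ctsz, a carboxypeptidase, and Ctsc, a dipeptidyl peptidase that activates granzymes. For Ctsb, normal thymocytes read 8.44, 8.58 and 8.53, wild-type lymphomas 9.35, 9.56 and 8.31, Dnmt3b-deficient lymphomas 8.77, 7.92 and 9.38, and pre-tumor samples 8.14 and 7.91. The 3 normal samples lay inside the range of both tumor groups. Ctsz ranged from 8.46 to 9.92 over all samples, with its highest value in Dnmt3b-deficient lymphoma 1, and Ctsc from 7.28 to 8.69, with its highest in pre-tumor sample 2. None of the 3 passed between pre-tumor and normal thymocytes: the difference was -0.49 for Ctsb (95% CI -1.60 to 0.61, adjusted p = 0.578), -0.42 for Ctsz (95% CI -1.08 to 0.24, adjusted p = 0.386) and 0.95 for Ctsc (95% CI 0.21 to 1.69, adjusted p = 0.0803). Ctsc came under the threshold without probe sets at the floor on all arrays (0.0422), without the 25% of probe sets with the lowest means (0.0286) and without wild-type lymphoma replicate 3 (0.0352).

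Dnmt3b genotype in the tumors gave no call among the 10 genes. The comparison of Dnmt3b-deficient with wild-type lymphomas asks whether loss of the methyltransferase goes with a different level in tumors driven by the same oncogene, and Cre goes with the genotype. Limma called 0 of 10 genes, where 0.00691% of all probe sets passed. At an unadjusted p under 0.05 there were 2, Ctsh and Cst3, beside 6.3% of all probe sets. Both were lower in Dnmt3b-deficient lymphomas and without overlap, where 3.34% of all probe sets were lower and 4.64% higher without overlap. Cst3 differed by -0.28 (95% CI -0.55 to -0.0047, adjusted p = 0.782). Ctsl differed by 0.71 with an interval of -0.60 to 2.01, Ctsd by -0.49 (-1.09 to 0.10), Ctsz by 0.45 (-0.14 to 1.04) and Lgmn by 0.45 (-0.30 to 1.19). Ctsa differed by -0.02 (-0.30 to 0.26), Ctsb by -0.38 (-1.37 to 0.61) and Ctsc by 0.21 (-0.45 to 0.87).

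From the pre-tumor stage to the tumor, within the Dnmt3b-deficient genotype, limma again called 0 of 10, where 0.0691% of all probe sets passed. Stage, age and sorting go together here, and the tumor samples are among those behind the choice of the genes. At an unadjusted p under 0.05, beside 9.43% of all probe sets, were Ctsz, higher in lymphomas by 0.75 (95% CI 0.089 to 1.41, adjusted p = 0.464), and Lgmn, lower (difference -0.89, 95% CI -1.72 to -0.052, adjusted p = 0.498). Neither overlapped between the groups, where 13.1% of all probe sets were higher and 7.83% lower without overlap. Ctsl differed by -1.29 with an interval of -2.75 to 0.16 and an adjusted p of 0.572. Cst3 differed by -0.01 (95% CI -0.31 to 0.29) and Ctsd by -0.05.

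The other genes of the lysosome were taken from 8 lists and read in pre-tumor against normal thymocytes, where the all-probe-set shares are the 9.88% and 9.69% above. Among 14 other cathepsins and lysosomal peptidases, 1 rose and 1 fell (median difference -0.28). Scpep1, a serine carboxypeptidase, rose by 1.20 (adjusted p = 0.0188) and Tpp1, a tripeptidyl peptidase, fell by 0.59 (adjusted p = 0.0234). The count of 2 became 1 without normal replicate 1 or pre-tumor replicate 1, and 0 without normal replicate 2 or pre-tumor replicate 2. Among 11 measured of 12 listed cystatins and other inhibitors, limma called 0, and 1, Serpinb6a, had an unadjusted p under 0.05. Its difference was -0.62 (adjusted p = 0.0522) and that of Cst7, a cystatin of cytotoxic cells, 0.83 (adjusted p = 0.386). Without Dnmt3b-deficient lymphoma replicate 1 or 3, 2 and 1 inhibitors passed.

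Acid hydrolases split in direction, with 9 of 27 lower and 3 higher (32 listed, median difference -0.36). Ppt2, a thioesterase, fell by 2.30 (4.92-fold, adjusted p = 0.00164), from 8.22, 8.27 and 8.26 in normal thymocytes to 6.26 and 5.64. Hexa, a subunit of hexosaminidase, fell by 1.26 (adjusted p = 0.0264), Acp2, an acid phosphatase, by 1.25 (0.00326), and Smpd1, acid sphingomyelinase, by 1.21 (0.0134). The 3 that rose were Gla, Gusb and Asah1, the last from 4.06, 4.07 and 3.79 in normal thymocytes to 4.88 and 5.38. The count of 12 became 4 without pre-tumor replicate 2.

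Membrane and activator proteins of lysosomes were lower in 8 of 19 and higher in 0 (20 listed, median difference -0.74). Psap, the precursor of the saposins, fell by 1.39 (adjusted p = 0.0167), from 11.99, 12.00 and 11.99 to 10.85 and 10.35. Scarb2, the receptor that sorts glucocerebrosidase, fell by 1.15 (0.00323), Laptm4b by 1.24 (0.00430) and the sialic acid exporter Slc17a5 by 1.10 (0.00844). Without pre-tumor replicate 2 the count was 4.

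The proton pump that acidifies lysosomes had 9 of 15 measured subunits lower and 2 higher (16 listed, median difference -0.67). The subunit Atp6v0d1 fell by 1.37 (adjusted p = 0.00688), Atp6v0a2 by 1.29 (0.00160), Atp6v1g1 by 1.20 (0.00386) and the accessory subunit Atp6ap1 by 1.14 (0.0221). Atp6v1a, which holds the catalytic site, rose by 0.80 (0.00195), and Atp6v1h by 0.65 (0.0433). The count of 11 became 7 without normal replicate 1 or either pre-tumor sample, and 6 without normal replicate 2.

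Sorting genes went both ways, with 4 of 16 higher and 3 lower (17 listed, median difference -0.19). Those that rose were Vps35 (1.71, adjusted p = 0.00517) and Vps26a (0.86, 0.0238) of retromer, which returns cathepsin receptors from endosomes, Gnptab (1.38, 0.00255), which starts the mannose 6-phosphate tag, and Ap1g1 (0.76, 0.00162) of the AP-1 coat. The count of 7 was 4 without any 1 of the normal samples and 3 without pre-tumor replicate 2, with no fall left in any of these fits. Of 12 genes of the TFEB family and its regulators, 1 rose (Fnip2, 0.90, adjusted p = 0.0166) and 2 fell (Flcn by 0.69, 0.0171, and Mtor by 0.49, 0.0321), with a median difference of -0.16. That count was 1 without normal replicate 2 and 0 without pre-tumor replicate 2.

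Class II chain processing, the pathway Ctsl and Ctss serve, had 4 of 9 genes lower and 0 higher (11 listed, median difference -0.28). H2-Ab1 fell by 1.63 (adjusted p = 0.0197), from 8.81, 8.63 and 8.21 in normal thymocytes to 6.77 and 7.07, and H2-Aa fell by 1.38 (0.0379), the invariant chain gene Cd74 by 1.15 (0.0206) and H2-Oa by 0.66 (0.0419). Class II molecules are made by antigen-presenting cells rather than by mouse thymocytes. The count was 0 without normal replicate 1 or 2 or pre-tumor replicate 2, 1 without pre-tumor replicate 1, and 2 without wild-type lymphoma 1 or 2 or Dnmt3b-deficient lymphoma 3. No gene of the 8 lists passed between the tumor genotypes or between the pre-tumor stage and the tumor.

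**Figure D4:**
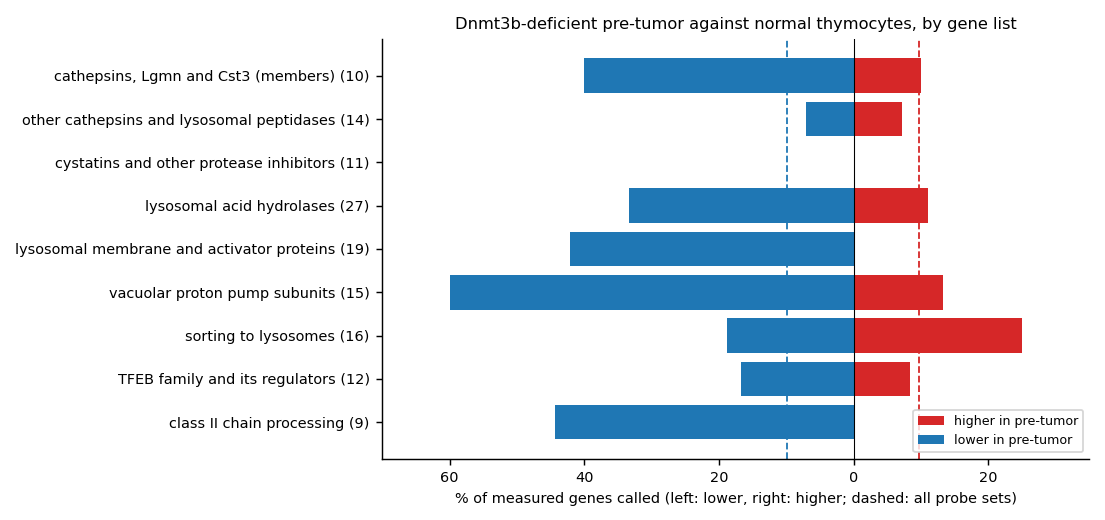
Share of measured genes (%) called lower (left, blue) or higher (right, red) in pre-tumor against normal thymocytes, for the 10 genes and the 8 lysosomal lists, with the number of measured genes in brackets and dashed lines at the shares of all probe sets. The proton pump has 60% of its subunits lower, and the cystatins and other inhibitors have no call.

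Markers of other cells that the thymus holds were read in the same comparison. T lineage genes had 3 of 10 lower, with a summed level of 104.3 to 106.4 in normal thymocytes, 94.4 to 98.0 in pre-tumor samples, 88.6 to 93.4 in wild-type lymphomas and 86.7 to 90.9 in Dnmt3b-deficient lymphomas. Their count was 7 without Dnmt3b-deficient lymphoma replicate 1 and 1 without pre-tumor replicate 2. Macrophage and monocyte genes had 3 of 16 lower, the complement genes C1qa, C1qb and C1qc. Dendritic cell genes had 3 of 12 lower, with a summed level of 56.8 to 57.6 in normal thymocytes, 52.7 to 53.7 in pre-tumor samples, 52.9 to 55.2 in wild-type and 52.4 to 54.1 in Dnmt3b-deficient lymphomas. Leaving out any 1 sample lowered that count. It was 1 without normal replicate 1 or 3, wild-type lymphoma 1 or Dnmt3b-deficient lymphoma 2.

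Thymic epithelial genes, the other thymic source of Ctsl, had 3 of 14 called lower. Of the 14 differences 12 were negative and 2, those of Ly75 and Ccl25, positive (median -0.36, beside -0.02 for all probe sets). Their summed level was 70.4 to 71.6 in normal thymocytes, 65.7 to 67.3 in pre-tumor samples, 64.3 to 68.5 in wild-type lymphomas and 68.2 to 72.1 in Dnmt3b-deficient lymphomas. The cortical markers Foxn1 (3.72 to 4.30) and Psmb11 (3.99 to 4.39) stayed low in every sample. Normal thymocytes read 5.74, 5.86 and 5.61 for Krt8, 6.03, 5.53 and 5.97 for Ly75, and 7.09, 7.14 and 6.90 for Cldn4. Pre-tumor samples read 5.12 and 4.89 for Krt8, 6.09 and 6.05 for Ly75, and 7.12 and 6.67 for Cldn4. Krt5 read 4.90, 4.85 and 4.56 in normal thymocytes and 4.07 and 3.86 in pre-tumor samples. Without normal replicate 2 or pre-tumor replicate 1 the count was 1, and without pre-tumor replicate 2 it was 0. Of 12 neutrophil genes the summed level was 56.0 to 61.5 in normal thymocytes, 46.5 to 46.7 in pre-tumor samples, 48.2 to 74.7 in wild-type and 47.8 to 71.7 in Dnmt3b-deficient lymphomas. Limma called 0 of them, and 0 had an unadjusted p under 0.05, though 5 passed with only the 2 groups in the fit. Every difference was negative (median -0.78) except that of Cxcr2, which was at the floor in all normal and pre-tumor samples. Mmp8 was at or near the floor in these samples. B lineage, stroma and endothelium, and red cell lists summed to 32.7 to 41.1 over 9 genes, 55.8 to 59.5 over 13 and 12.0 to 15.4 over 3. Of these 3 lists 1 gene each passed, Blnk higher, Col3a1 and Slc4a1 lower, and leaving out a sample gave 0 to 2, 0 to 3 and 0 to 2. The part of any of these cells, or of sorting, in the fall of Ctsl, Ctsd, Ctsa, Cst3 and the class II genes was not tested.

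The genes whose levels followed Ctsl most closely over the 11 samples were Arpp21 (Pearson r 0.986), H2-T10 (0.985), Casp6 (0.978), Ripor1 (0.976) and Emp1 (0.975), among 15644 genes compared. Arpp21 is known from double-positive thymocytes, H2-T10 is a non-classical class I gene and Casp6 an apoptotic protease. Their group means were ordered as those of Ctsl: Arpp21 had 8.55 in normal thymocytes, 6.65 in pre-tumor samples, 4.89 in Dnmt3b-deficient and 4.43 in wild-type lymphomas, and H2-T10 10.25, 7.45, 6.69 and 5.51. The points share their 4 groups, so a gene that separates the groups as Ctsl does is near it by that alone. The nearest to Ctsb were Fam217a (0.918), Ceacam9 (0.909) and Stx3 (0.908), of which Fam217a was at or near the floor in all groups. The other genes were low and varied little: Ceacam9 ranged from 4.01 to 4.32 and Stx3 from 4.02 to 4.43 over all samples, below the median of every array.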

How the data were processed

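Per the submitters' processing notes, the authors used Partek and RMA on the arrays; versions, order and genome build are not given in the sources used here. The deposited values are log2 levels of 35512 probe sets with a floor of 3.32, used as deposited. The 6573 probe sets with the lowest IDs, which have no annotated gene, were left out as probable controls, leaving 28939: 21789 with 1 symbol, 1621 with several and 5529 with none.

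A 4-group model was fitted to all 11 arrays with limma 3.58.1 in R 4.3.3 (lmFit, eBayes without trend, prior degrees of freedom 0.46, residual 7), with Benjamini-Hochberg adjustment over all tested probe sets and a threshold of 0.05. A difference is log2 of the first group minus the second. The fit was tested on simulated data. The members, the 8 pathway lists and the 8 marker lists were chosen with earlier results of these data known. Named were all members and, from each pathway list, up to 4 genes with the largest difference among those called, otherwise up to 2. From the pathway lists, Neu1 and Glb1 were added outside this rule. So were Gla, Gusb, Asah1, Atp6v1a and Atp6v1h, the genes called higher in their lists. Replicate numbers did not pair the samples: deviations of same-numbered samples correlated at -0.331 to 0.322.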

Additional observations from a re-analysis of the deposited data

How the results depend on the processing

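The members' differences and counts, and in pre-tumor against normal thymocytes the list counts and the listed genes named by the rule, were recomputed in 20 settings: the replicate block, quantile normalization, centring, 3 filters, a variance trend, no moderation, only the 2 groups compared, and each of the 11 samples left out (a lone pre-tumor sample is assumed to vary like the other groups). Averaging probe sets per gene was not run, as each gene has 1. Of the members, 0 were called between tumor genotypes in the main fit and 0 to 1 on leaving out a sample, 5 (2 to 6) before tumors against normal, and 0 (0 to 0) from pre-tumor to tumor. With the replicate block these counts were 0, 5 and 0, so the block changed none of them, although all probe sets called before tumors went from 5662 to 3269 (11.3%). With the block, 0 other peptidases, 0 TFEB family genes and 3 sorting genes were called. With only 2 groups in the fit, 2250 probe sets were called, among them 7 hydrolases, 5 membrane proteins, 5 pump subunits, 4 sorting genes, and 0 TFEB family and 0 class II genes, and without pre-tumor replicate 2, 1712. Among the tested differences of members, direction turned only in 6 that were not called: with the block Cst3 differed by 0.0059 from pre-tumor to tumor. On leaving out a sample, the tumor genotype difference ranged from -0.15 to 0.056 for Ctsa, -0.073 to 0.41 for Ctsc and -0.77 to 0.0016 for Ctsb, and that from pre-tumor to tumor from -0.10 to 0.078 for Cst3, -0.49 to 0.38 for Ctsd and -0.45 to 0.12 for Ctsc. The number of arrays limits the precision, above all the 2 of pre-tumor thymocytes, and a level at the floor is only a bound.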
